A study of Mus musculus with 53 samples.

Results

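9 genes linked to the thalamus were followed in 4 dissected regions of the mouse brain, in a spinocerebellar ataxia type 3 (SCA3) model and its controls: Tcf7l2, Prkcd, Plcb4, Slc17a6, Lef1, Ctxn3, Rasd1, Shisa6 and Whrn. They are 9 of the 12372 genes in the count table and were picked by symbol, because earlier results on these libraries had shown them to vary between dissections of brainstem and striatum. Their levels, correlations and genotype differences in those 2 regions are therefore given as a description, whereas cerebellum and cortex were treated as not used. Which values chose the genes is not recorded in full, and the p-values in cerebellum and cortex hold only if those regions played no part. All 9 genes passed the low-count filter of the deposited table.

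RNA was sequenced from 14 male mice, 8 wild-type and 6 SCA3, killed at 74 to 77 weeks of age without treatment and after behavioural testing. The SCA3 mice were hemizygous MJD84.2 animals, in which a full-length copy of human ATXN3, with its CAG repeat expanded, is driven ubiquitously by the human promoter on top of the endogenous mouse Atxn3. The wild-type mice were C57BL/6. Each mouse gave at most 1 library per region, so that brainstem held 8 wild-type and 6 SCA3 libraries, cerebellum 7 and 6, cortex 7 and 6, and striatum 8 and 5.

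The thalamus is the diencephalic relay between sensory organs, basal ganglia, cerebellum and cortex, and most of its projection neurons release glutamate. Tcf7l2 and Lef1 encode the DNA-binding partners of beta-catenin at the end of the Wnt pathway, and Tcf7l2 is a known selector of thalamic and habenular neuron identity. Slc17a6 encodes the vesicular glutamate transporter VGLUT2, used by subcortical glutamatergic neurons. Plcb4 and Prkcd encode a phospholipase C and a protein kinase C that act downstream of Gq-coupled receptors. Rasd1 encodes a small G protein induced by glucocorticoids, Shisa6 an auxiliary subunit of AMPA-type glutamate receptors, Whrn the scaffold protein whirlin of sensory hair cells and photoreceptors, and Ctxn3 a small brain membrane protein of the cortexin family. None of these genes is restricted to the thalamus: Tcf7l2 is also found in newly forming oligodendrocytes, Lef1 in endothelium, and Plcb4 and Shisa6 in cerebellar Purkinje cells.

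Promoter sequence is shown for Tcf7l2 and Lef1, the pair with the highest r across brainstem libraries, and for Prkcd, which had the widest range in striatum in CPM. The promoter windows used here (RefSeq, GRCm38.p6) covered 6 of the 9 genes, without Ctxn3, Rasd1 and Shisa6. The 250 bases before the first listed start of these 3 genes are shown 5′ to 3′ on the transcribed strand, with GC boxes (GGGCGG or its reverse complement) in capitals.
Tcf7l2 (chr19:55741560-55741809, plus strand): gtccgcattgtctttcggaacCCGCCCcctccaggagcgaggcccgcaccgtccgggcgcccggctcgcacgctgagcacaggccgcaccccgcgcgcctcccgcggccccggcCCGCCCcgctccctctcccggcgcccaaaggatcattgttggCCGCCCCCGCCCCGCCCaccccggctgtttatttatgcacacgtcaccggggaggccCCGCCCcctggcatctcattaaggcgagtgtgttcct
Lef1 (chr3:131110047-131110296, plus strand): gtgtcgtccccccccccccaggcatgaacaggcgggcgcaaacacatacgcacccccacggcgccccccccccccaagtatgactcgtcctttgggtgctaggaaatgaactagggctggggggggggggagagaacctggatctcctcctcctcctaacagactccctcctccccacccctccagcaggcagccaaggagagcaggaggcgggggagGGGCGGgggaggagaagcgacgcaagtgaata
Prkcd (chr14:30626209-30626458, minus strand): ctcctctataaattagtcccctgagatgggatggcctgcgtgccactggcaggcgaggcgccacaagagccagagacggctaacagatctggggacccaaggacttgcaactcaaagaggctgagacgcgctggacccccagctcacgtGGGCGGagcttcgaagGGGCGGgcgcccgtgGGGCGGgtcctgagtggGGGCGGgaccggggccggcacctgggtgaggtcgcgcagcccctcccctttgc
The TCF/LEF core motif (CTTTGAT or CTTTGAA, searched on both strands) occurred in 0 of the 13 windows listed for the 6 genes, against 7.48% of the 32851 windows of the same length in the table. GC boxes were present in 8 of the 13 windows and in at least 1 window of each of the 6 genes, against 32.7% of all windows. The window of Tcf7l2 held 6 GC boxes, that of Prkcd 4 and that of Lef1 1, and with no TCF/LEF match the motifs could not overlap. These are matches of letters and not binding sites.

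Total counts per library ranged from 31680939 to 76703758, and no 2 libraries held identical counts. RIN, the RNA integrity number, ranged from 5.7 to 9 in striatum and from 6.3 to 8.2 in the other regions, and its Pearson r with the log2 CPM (CPM being the TMM-scaled counts-per-million value) of the 9 genes in striatum lay between -0.37 and -0.14. It reached 0.61 for Whrn in brainstem and 0.71 for Whrn in cortex, where Shisa6 had an r of -0.71 and Lef1 of 0.65 with the log2 library total, and the part of RIN and depth in the correlations was not tested. The region labels were checked with marker genes. The summed level of 5 Purkinje cell markers was 5990 to 10200 CPM in cerebellum and at most 2420 CPM elsewhere. The 12 markers of striatal projection neurons summed to 3230 to 12500 CPM in striatum, and their highest cortical value of 5280 CPM fell within that range. All libraries are bulk tissue, in which fewer cells of a type and less RNA per cell cannot be told apart.

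In wild-type mice the order of the regions by median level varied among the genes. The library ranges of neighbouring regions were separate in only 5 steps, and the share of such steps over all genes was not computed. Plcb4 was highest in cerebellum, with a median of 306 CPM (266 to 360), and lower in brainstem (median 134 CPM), striatum (68 CPM) and cortex (64.3 CPM). The cerebellar libraries lay above all brainstem libraries, while striatum overlapped both brainstem and cortex. Ctxn3 showed the same break, with 25.9 to 34.4 CPM in cerebellum against at most 12.5 CPM in brainstem, its next region. Shisa6 reached 138 to 268 CPM in cerebellum and no more than 72.8 CPM in striatum, its next region. Slc17a6 was highest in brainstem, at 268 to 407 CPM, above the cerebellar range of 16.5 to 125 CPM, although the highest striatum libraries, at 291 and 315 CPM, fell inside the brainstem range. For Prkcd the step lay lower in the order, because striatum (median 102 CPM) overlapped cerebellum (71.5 CPM), which in turn was separate from brainstem (25.2 CPM). For Tcf7l2, Lef1, Rasd1 and Whrn every neighbouring pair of regions overlapped. The name thalamus-linked therefore does not describe the cerebellar levels of Plcb4, Ctxn3 and Shisa6, and no thalamus library was part of the design.

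Levels were compared between genes only per kilobase of annotated exon. In wild-type brainstem the median was 84.4 CPM per kb for Slc17a6, 25.7 for Plcb4, 10.8 for Whrn, 7.8 for Prkcd, 3.23 for Ctxn3, 2.04 for Rasd1, 1.52 for Lef1 and 1.43 for Tcf7l2. By this median VGLUT2 mRNA was the most abundant of these 8, and the transcription factors the least. Tcf7l2, however, ranged from 1.12 to 35.7 CPM per kb in wild-type brainstem, and its SCA3 median was 11.3. Shisa6 was left out because its gene model covered 1578 bases of which 3 were non-coding. Counting ignored strand, and 1208 exonic bases of Lef1 overlapped the antisense gene Gm43352, so reads of these 2 genes cannot be told apart. No exon of the other 8 genes overlapped an exon of another annotated gene. The span of the antisense gene 4930511M06Rik, however, covered 9618 bases of Ctxn3. On GRCm38.p6 RefSeq places Plcb4 at chr2:135658603-136014602, Slc17a6 at chr7:51621830-51671126 and Ctxn3 at chr18:57467751-57478134 on the plus strand. Rasd1 lies at chr11:59963181-59964944, Shisa6 at chr11:66211725-66527984 and Whrn at chr4:63414908-63496083 on the minus strand.

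**Figure D1:**
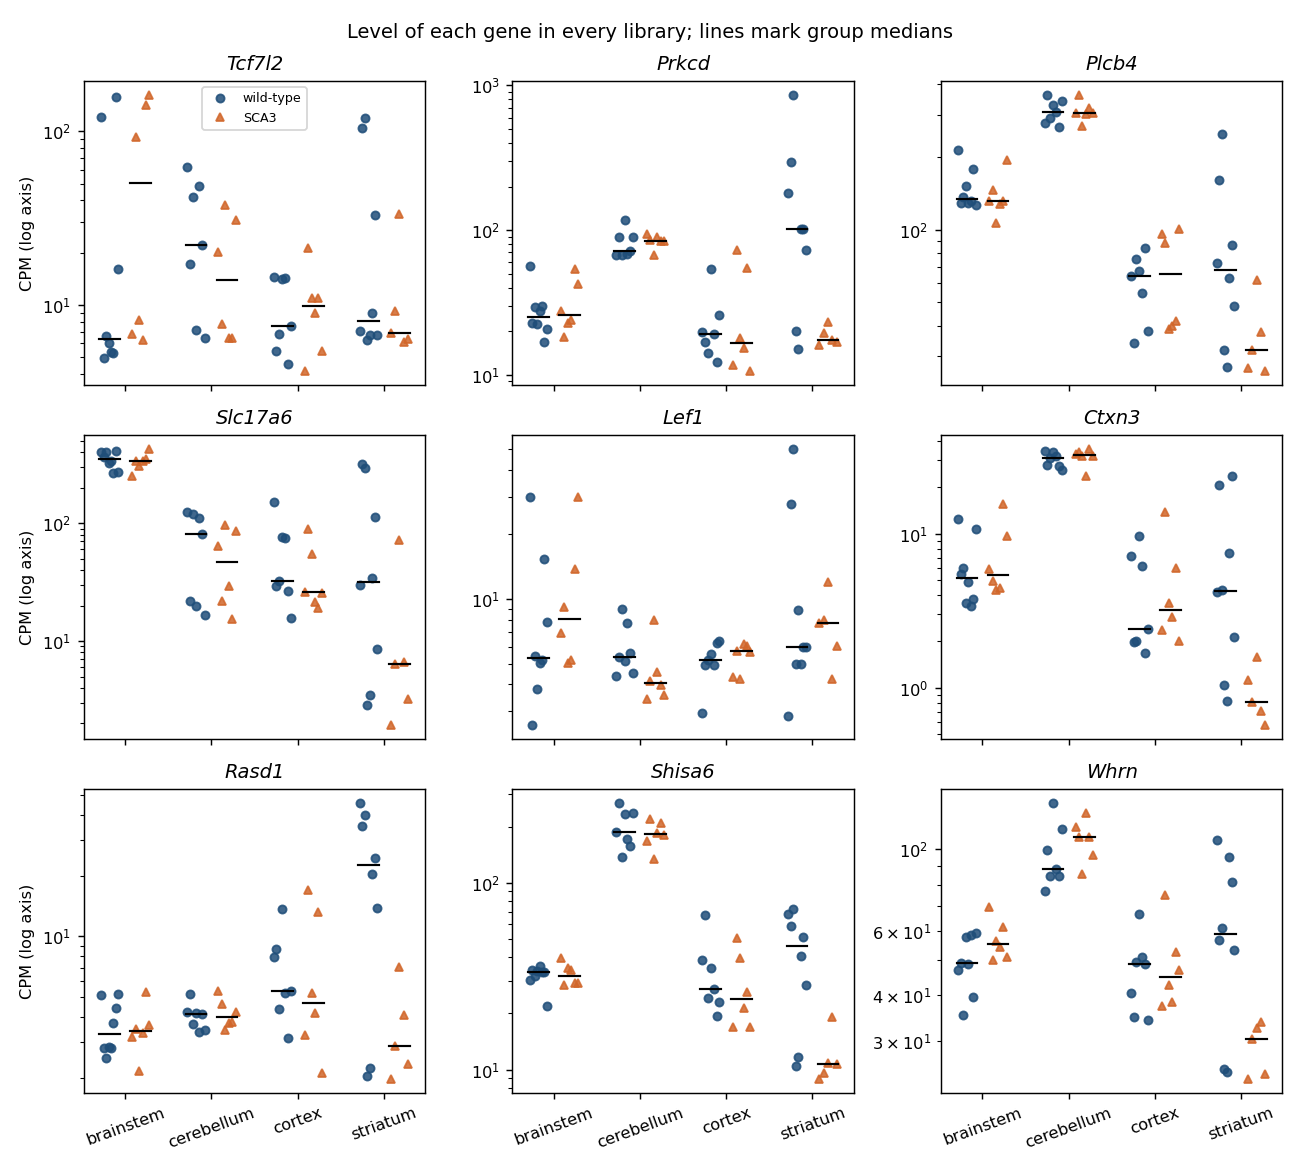
Level of each of the 9 genes in CPM (log axes) in every library of the 4 regions. Circles are wild-type libraries, triangles SCA3 libraries and black lines group medians. In striatum the wild-type libraries of Prkcd span 15.1 to 861 CPM while the 5 SCA3 libraries stay between 16.1 and 23.2 CPM.

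In striatum Prkcd measured 15.1, 19.9, 72.4, 101, 102, 180, 294 and 861 CPM in the 8 wild-type libraries and 16.1, 16.8, 17.4, 19.3 and 23.2 CPM in the 5 SCA3 libraries. Of the wild-type libraries 6 exceeded every SCA3 library, and the lowest of all 13 was also wild-type, so the groups overlapped. Slc17a6 measured 2.89, 3.47, 8.55, 29.9, 34, 113, 291 and 315 CPM in wild-type and 1.94, 3.23, 6.37, 6.61 and 71.3 CPM in SCA3 striatum. Here 1 SCA3 library, of mouse 9082853, exceeded 5 of the 8 wild-type libraries. Tcf7l2 measured 6.27, 6.7, 6.71, 7.1, 8.99, 33, 105 and 119 CPM in wild-type and 6.11, 6.36, 6.91, 9.28 and 33.2 CPM in SCA3 libraries. The values fell into 9 libraries at or below 9.28 CPM and 4 at or above 33 CPM, and both sets held both genotypes.

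The genes did not all rise in the same striatal libraries. Tcf7l2 and Lef1 were highest in wild-type mice 7267058 (105 and 27.7 CPM) and 7267059 (119 and 50.1 CPM), and Slc17a6 and Plcb4 peaked in the same pair. In wild-type mouse 7267055 Rasd1 reached its maximum of 45.8 CPM and Whrn its maximum of 106 CPM, with Prkcd at 180 CPM. In that library Tcf7l2 was at 7.1 CPM and Lef1 at 2.84 CPM, its lowest striatal value. Rasd1 over Tcf7l2 was accordingly 6.46 in this library, against 0.334 in mouse 7267058 and 0.336 in mouse 7267059. Ctxn3 was highest in a different pair, with 23.5 CPM in wild-type mouse 9083373 and 20.6 CPM in mouse 7267058, and at only 4.29 CPM in mouse 7267059 where Prkcd peaked. Shisa6 lay between 28.4 and 72.8 CPM in 6 wild-type libraries and between 8.91 and 19.1 CPM in the remaining 7, which included all 5 SCA3 libraries. Whrn divided the libraries in the same way, with 53.2 to 106 CPM in those 6 and 23.6 to 33.7 CPM in the other 7.

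Across the 13 striatum libraries the median Pearson r of log2 CPM over the 36 gene pairs was 0.8, with 35 pairs above 0. The tightest pair was Rasd1 with Shisa6 (r = 0.96, rho = 0.93), followed by Plcb4 with Slc17a6 (r = 0.95, rho = 0.93). Lef1 stood apart: its r was 0.85 with Tcf7l2 but 0.25 with Shisa6 and -0.03 with Whrn. Because Tcf7l2 falls into separate clusters, r was also taken within the 9 low libraries, where the median over pairs was 0.88. In these 9 libraries Lef1 ran against the others, with r of -0.67 to Prkcd, -0.75 to Plcb4 and -0.77 to Shisa6, and Tcf7l2 with Lef1 gave 0.18. The median was 0.91 over the 6 libraries of mice numbered 9083371 to 9083515. These values describe the libraries that chose the genes and carry no p.

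**Figure D2:**
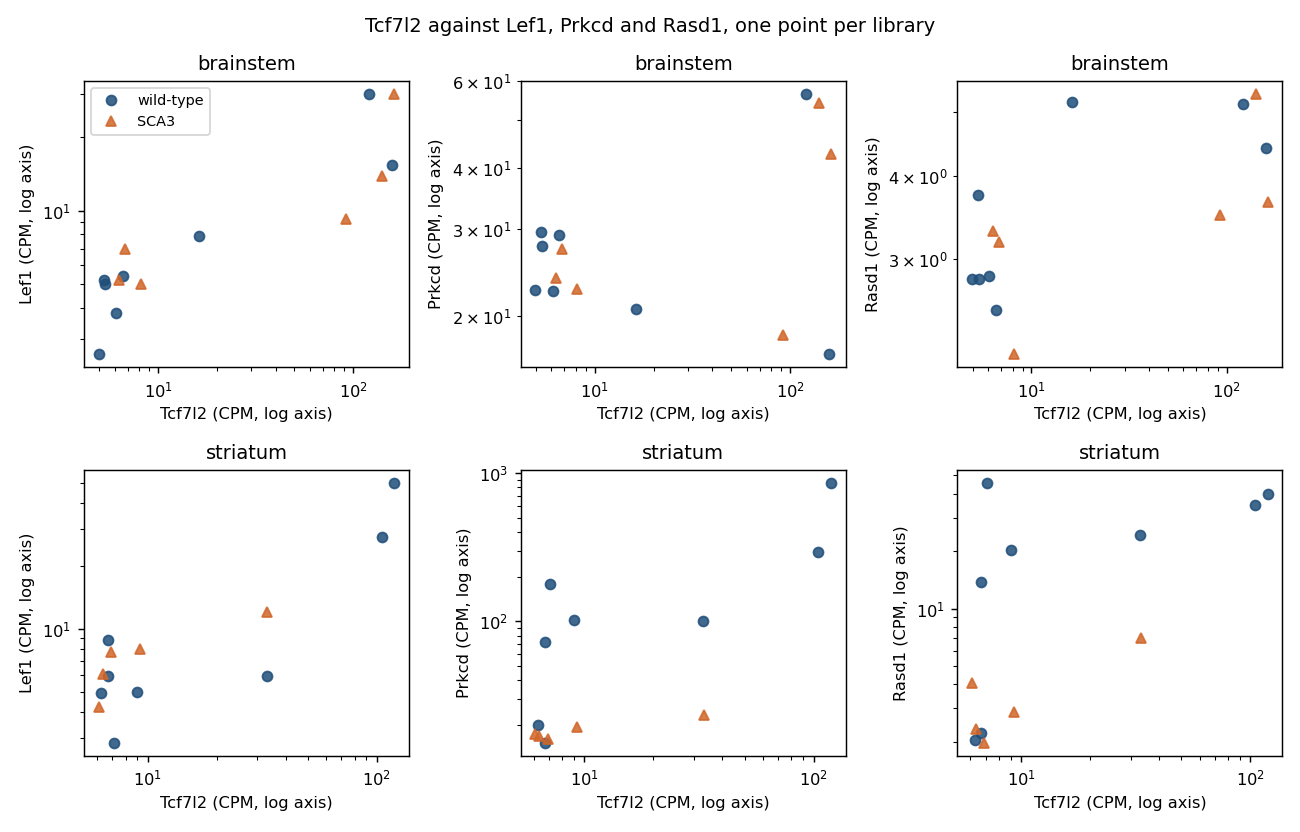
Tcf7l2 (x axes, CPM, log scale) against Lef1, Prkcd and Rasd1 (y axes, CPM, log scale), with brainstem in the upper and striatum in the lower row and 1 point per library (circles wild-type, triangles SCA3). Lef1 follows Tcf7l2 in brainstem (r = 0.90), whereas in striatum several libraries with Tcf7l2 below 10 CPM have high Prkcd and Rasd1.

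All 9 genes had lower fitted levels in SCA3 than in wild-type striatum, and 7 passed a false discovery rate (FDR, Benjamini-Hochberg adjusted p) of 0.05 in the edgeR likelihood ratio test over all genes. Of all genes 7.54% were called in this comparison, and since the genes were chosen with it in view nothing is read from their count. The log2 fold change (± SE) was -3.47 ± 0.5 for Prkcd, -3.06 ± 0.52 for Ctxn3, -2.65 ± 0.44 for Rasd1 and -2.48 ± 0.71 for Slc17a6. It was -1.86 ± 0.31 for Shisa6, -1.33 ± 0.31 for Plcb4 and -1.13 ± 0.22 for Whrn. Tcf7l2 (-1.56 ± 0.79, edgeR FDR = 0.25) and Lef1 (-0.87 ± 0.48, edgeR FDR = 0.28) did not pass. Without SCA3 mouse 9082853 Slc17a6 was at -4.45 and Tcf7l2 at -2.35, and without wild-type mouse 7267059 Tcf7l2 was at -1 and Lef1 at -0.2. The median over the 9 genes was -1.86, beside -0.003 over all genes, and the ranges of the genotypes overlapped for every gene. Fitted to the striatum libraries alone, 4 genes passed (Ctxn3, Prkcd, Rasd1 and Shisa6). With the mean of other thalamic markers as a covariate none did, and the values ranged from -1.17 to 0.62, with Slc17a6 at 0.57 and Tcf7l2 and Lef1 also above 0. Among the 6 libraries of mice numbered 9083371 to 9083515, 0 passed, with values between -3.72 and -0.32. Without wild-type mice 7267058 and 7267059, an alternative chosen after seeing the data, 5 genes passed and the striatal values ranged from -2.76 to 0.44. Slc17a6 also lost its call when any 1 of wild-type mice 7267058, 7267059 and 9083373 or SCA3 mice 7267054, 7267056, 9083514 and 9083515 was left out. The same held for the edgeR quasi-likelihood test, limma-voom with or without the mouse as a replicate block, RIN as covariate and a RIN of at least 7. By limma-voom without the block the striatal values of the 9 genes ranged from -2.47 to -0.25.

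Other markers moved with these genes in striatum. Of 18 thalamic markers outside the 9 genes, 12 were measured, all 12 had lower fitted levels in SCA3 striatum (median log2 fold change -1.35) and 9 passed. The transcription factors Zic4 (-2.46 ± 0.52) and Zic1 (-2.17 ± 0.5) were among them, as were the calcium channel Cacna1g (-1.29 ± 0.25) and the calcium-binding protein Calb2 (-2.46 ± 0.56). The list summed to 441 to 2840 CPM in wild-type and 438 to 797 CPM in SCA3 striatum, and its mean log2 CPM correlated with Plcb4 at r = 0.99, Slc17a6 at 0.97, Prkcd at 0.93 and Lef1 at 0.64 (13 libraries), the last of which was -0.23 without the 2 farthest libraries (rho = 0.23 over all 13). The 12 striatal projection neuron markers had r of -0.95 with Plcb4 to -0.51 with Lef1, and summed to 3230 to 12500 CPM in wild-type and 7670 to 11500 CPM in SCA3 libraries. Their lowest sums, 3230, 4050 and 4630 CPM, were in mice 7267059, 9083373 and 7267058. None of the 12 passed the edgeR test, and all 12 had fitted values above 0, with a median log2 fold change of 0.45. Pde10a (0.38 ± 0.28), Scn4b (0.38 ± 0.32) and Adcy5 (0.42 ± 0.24) were the most abundant of them. The covariate fit does not separate these markers from the 9 genes, with which they correlate this closely, and their part in the result was not tested. Of 6 habenula markers 1 was measured (Nwd2, -0.35 ± 0.25 in striatum) and of 9 hypothalamus markers 0 were in the table. Of 12 hindbrain and midbrain markers 2 were measured, Th (-0.19 ± 0.54 in brainstem) and Chat (-0.06 ± 0.81), neither of them called in any region.

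**Figure D3:**
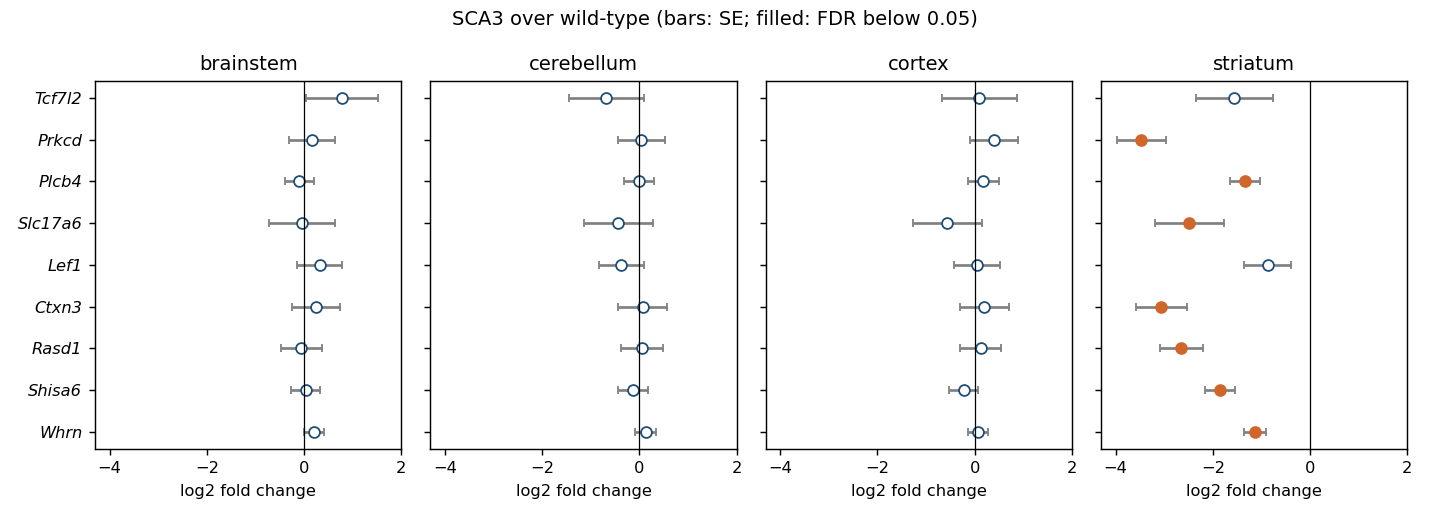
Log2 fold change of SCA3 over wild-type for each gene in the 4 regions, with bars for the SE and filled points for FDR below 0.05. The 9 striatal values lie between -3.47 and -0.87, and the values in the other regions between -0.68 and 0.78.

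In brainstem a narrower set varied. Tcf7l2 measured 4.97, 5.32, 5.38, 6.08, 6.6, 16.2, 121 and 158 CPM in wild-type and 6.32, 6.79, 8.16, 92.3, 141 and 162 CPM in SCA3 libraries. These were 5 libraries, 2 wild-type and 3 SCA3, lay at or above 92.3 CPM and the other 9 at or below 16.2 CPM. Lef1 was at 9.21 to 29.9 CPM in the former 5 and at 2.59 to 7.85 CPM in the latter 9. Only 2 genes in the table had a larger SD of log2 CPM within genotype than Tcf7l2 (SD 2.18, median of all genes 0.13). Prkcd, whose striatal range was the widest in CPM, stayed between 16.7 and 56.5 CPM in brainstem, and its lowest value belonged to wild-type mouse 9083373, with Tcf7l2 at 158 CPM. The ratio of Tcf7l2 to Prkcd was 9.41 in that library and 2.13 to 5.04 in the other 4 with high Tcf7l2, while no striatum library exceeded 1.43. Tcf7l2 with Lef1 gave r = 0.9 in brainstem and 0.85 in striatum, but the latter was 0.44 without the 2 farthest libraries and 0.18 within the 9 low libraries.

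The median r over the 36 pairs was 0.29 across 14 brainstem libraries, and 0.18 to 0.42 with 1 library left out. It was -0.01 within the 9 libraries low in Tcf7l2. Tcf7l2 with Lef1 (r = 0.9, rho = 0.87) was the strongest pair and kept an r of 0.66 within those 9. Shisa6 was negatively related to Rasd1 (r = -0.62), Ctxn3 (-0.58) and Tcf7l2 (-0.45), which it had accompanied in striatum. Slc17a6 with Whrn gave -0.77, against 0.69 in striatum. The other thalamic markers correlated with Lef1 at 0.84 and Tcf7l2 at 0.75, and with Whrn at -0.32. Mature oligodendrocyte markers, 10 genes that summed to 9650 to 22000 CPM, had an r of -0.87 with Tcf7l2. The 5 libraries with high Tcf7l2 summed to 9650 to 11600 CPM on this list and the other 9 to 13400 to 22000 CPM. These values move with Tcf7l2, and their part in its level was not tested.

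None of the 9 genes was called between SCA3 and wild-type brainstem (0 of 9, with 1.92% of all genes called, edgeR). The same 0 of 9 held there, and in cerebellum and cortex, at an unadjusted p of 0.05 and by DESeq2, limma-voom and the edgeR quasi-likelihood test at an FDR of 0.05. Tcf7l2 had the largest fitted value, 0.78 ± 0.75 (95% interval -0.69 to 2.25, and 0.34 to 1.55 with 1 mouse left out), and the other 8 lay between -0.1 and 0.32. Of the 10 mature oligodendrocyte markers 2 were called lower in SCA3 brainstem, among them the myelin gene Mal (-0.65 ± 0.18).

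**Figure D4:**
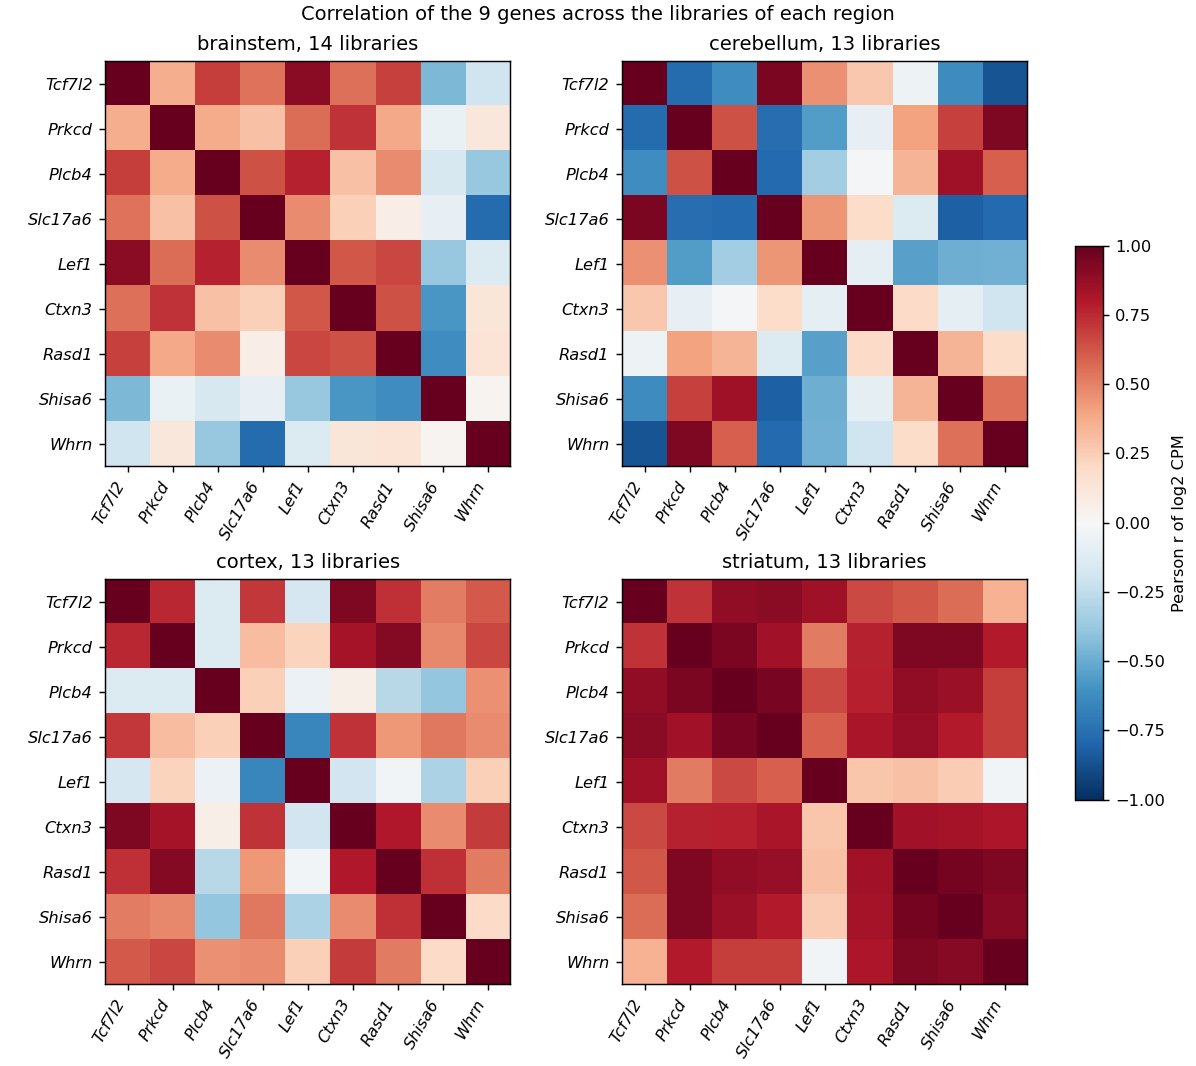
Pearson r of log2 CPM between the 9 genes across the libraries of each region (red positive, blue negative). Striatum is positive in 35 of 36 pairs, cerebellum divides into Tcf7l2 with Slc17a6 against Prkcd, Plcb4, Shisa6 and Whrn, and in cortex Lef1 and Plcb4 stand apart.

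In cerebellum, treated as not used in choosing the genes, they split into opposed sets. Tcf7l2 and Slc17a6 rose together (r = 0.94, rho = 0.96, permutation p adjusted over 36 pairs = 0.0011 for r and 0.00036 for rho), as did Prkcd and Whrn (r = 0.93, adjusted permutation p = 0.00036; rho = 0.95, 0.0009). Tcf7l2 measured 6.43 to 62 CPM in wild-type and 6.42 to 37.8 CPM in SCA3 cerebellum. Slc17a6 was at 15.4 to 29.4 CPM in 6 libraries and at 63.9 to 125 CPM in the other 7, without overlap, and both genotypes occurred in each set. The sets opposed each other: Tcf7l2 with Whrn gave r = -0.86 (rho = -0.79, adjusted permutation p = 0.0028 and 0.017) and Slc17a6 with Shisa6 gave r = -0.82 (rho = -0.7, 0.006 and 0.04). Plcb4 with Shisa6 was positive (r = 0.85, rho = 0.81, 0.0034 and 0.013). In all 10 of 36 pairs passed at 0.05, 4 positive and 6 negative, and 9 of these also passed by rho. Leaving out the 2 libraries farthest from the median on the first gene, 8 of the 10 still passed, and all 10 had the same sign in the 7 libraries of mice numbered 9083371 to 9083515. The share passing among other genes was not computed, here or for the counts in cortex and with the marker lists below. These counts are therefore not read as particular to the 9 genes. Tcf7l2 has a gap between 7.81 and 17.3 CPM, and within the 8 libraries above it the r was 0.82 with Slc17a6 and -0.74 with Whrn.

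Marker lists separated the same 2 sets in cerebellum. The 10 lists of at least 5 measured genes were compared with the 9 genes, 90 relations in all, of which 29 passed after adjustment by r and 28 by rho. Purkinje cell markers followed Shisa6 (r = 0.98, rho = 0.93, adjusted permutation p = 0.00045 and 0.0018) and Plcb4 (r = 0.89, rho = 0.88, 0.001 and 0.0028). They opposed Slc17a6 (r = -0.87, rho = -0.82, 0.0014 and 0.008). Without the 2 farthest libraries these r were 0.97, 0.87 and -0.87. Oligodendrocyte markers followed Slc17a6 (r = 0.91, rho = 0.9, 0.00067 and 0.0018, 0.87 without 2 libraries) and Tcf7l2 (r = 0.85, rho = 0.86, 0.0047 and 0.0037, 0.8 without 2). Striatal projection neuron markers, low here at 474 to 618 CPM in sum, also followed Slc17a6 (r = 0.96, rho = 0.9, 0.00045 and 0.0018, 0.95 without 2). The other thalamic markers, which include the cerebellar genes Zic1 and Rora, went with Shisa6 (r = 0.71, rho = 0.75, 0.027 and 0.02, 0.6 without 2) and against Slc17a6 (r = -0.72, rho = -0.6, 0.027 and 0.089, -0.72 without 2). Whether cell composition lies behind these relations was not tested.

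No difference between genotypes passed for these genes in cerebellum (0 of 9 called, background 0.0647% of genes, edgeR). The value farthest from 0 was -0.68 ± 0.77 for Tcf7l2 (95% interval -2.19 to 0.83), the widest interval of the 9. Whrn had the smallest SE, at 0.13 ± 0.21 (-0.28 to 0.54). The SE in each region rests on a dispersion per gene shared by all regions. It does not measure the spread within cerebellum alone.

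Cortex held another arrangement, in which Tcf7l2, Ctxn3, Prkcd and Rasd1 moved together at low levels. Tcf7l2 ranged from 4.17 to 21.2 CPM, Ctxn3 from 1.69 to 13.8 CPM and Rasd1 from 2.11 to 16.9 CPM over both genotypes. SCA3 mouse 7267056 was the highest for all of these and for Prkcd (72.9 CPM). Tcf7l2 with Ctxn3 gave r = 0.93 (rho = 0.91, adjusted permutation p = 0.00018 and 0.0009) and Prkcd with Rasd1 r = 0.92 (rho = 0.92, 0.00018 and 0.0009). Of 36 pairs 12 passed, 11 of them positive, but 6 passed by rho and 2 without the 2 farthest libraries, namely the pairs just given (r = 0.94 and 0.85, adjusted permutation p = 0.0018 and 0.014). Of the remaining 10 relations 4 also passed by rho, and without the 2 libraries some kept a similar r, such as Rasd1 with Shisa6 (0.73 and 0.68), while others fell, such as Ctxn3 with Whrn (0.7 and 0.27). Lef1, by contrast, was steady at 2.96 to 6.39 CPM and gave r = -0.17 with Tcf7l2.

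Against the marker lists, 14 of 90 cortical relations passed by r and 10 by rho. The other thalamic markers followed Ctxn3 (r = 0.98, rho = 0.93, adjusted permutation p = 0.00045 and 0.00067) and Tcf7l2 (r = 0.95, rho = 0.95, 0.00045 and 0.00067). Cortical glutamatergic neuron markers, 6 genes at 514 to 2130 CPM in sum, opposed Ctxn3 (r = -0.96, rho = -0.92, 0.00045 and 0.00067) and Tcf7l2 (r = -0.93, rho = -0.91, 0.00054 and 0.00067). Without the 2 farthest libraries these 4 values of r were 0.95, 0.94, -0.94 and -0.93. Lef1 instead followed endothelial markers (r = 0.94, rho = 0.81, 0.00045 and 0.014, 0.78 without 2), the only one of the 9 genes to pass with that list.

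None of the 9 genes was called between genotypes in cortex (0 of 9, background 0.154% of genes, edgeR). The fitted values lay between -0.56 ± 0.7 (Slc17a6, 95% interval -1.93 to 0.81) and 0.4 ± 0.49 (Prkcd, -0.56 to 1.36).

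**Figure D5:**
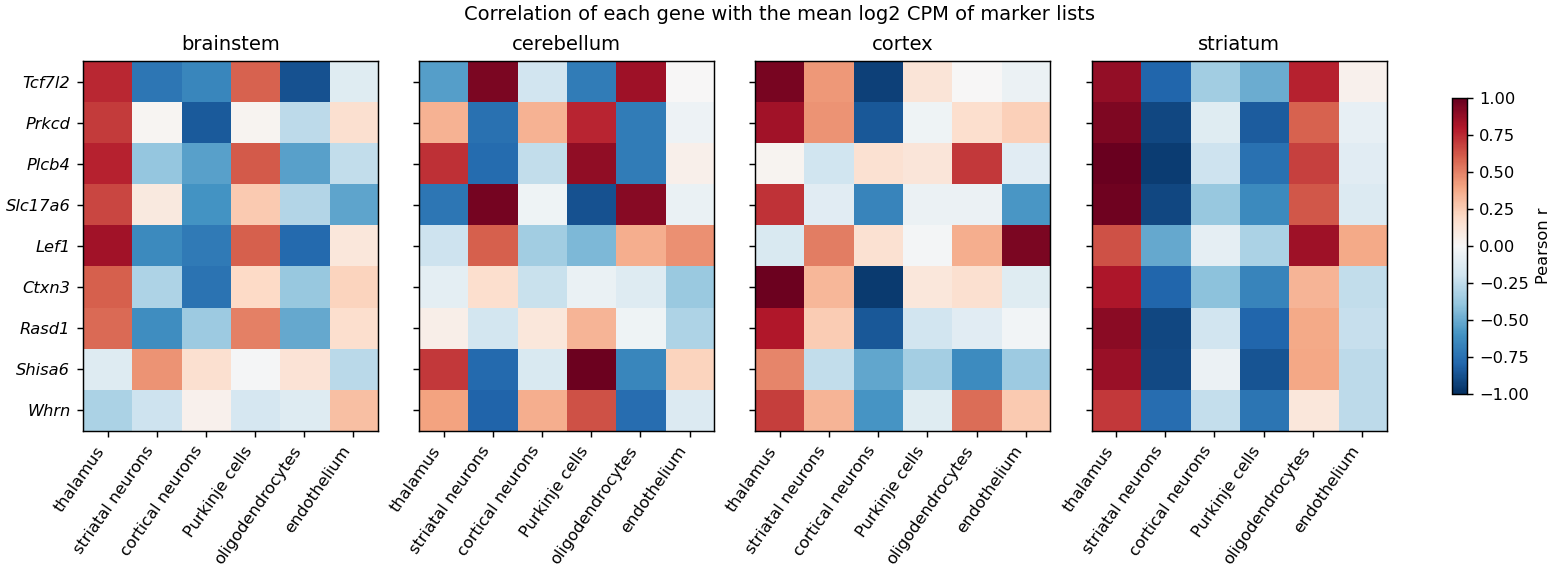
Pearson r of each gene with the mean log2 CPM of 6 marker lists across the libraries of each region (red positive, blue negative). The thalamus column is positive for all 9 genes in striatum (for Lef1 it turns to -0.23 without the 2 farthest libraries), the Purkinje column separates Shisa6 (0.98) from Slc17a6 (-0.87) in cerebellum, and Lef1 pairs with endothelium in cortex (0.94).

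Levels of a gene were also compared between regions of the same mouse. In these comparisons the r of a gene between 2 regions (12 or 13 mice, 54 relations, description) ranged from -0.59, for Lef1 between brainstem and cerebellum, to 0.61, for Plcb4 between brainstem and cortex. Wild-type mouse 7267055 was high for Tcf7l2 in 3 regions, with 121 CPM in brainstem, 62 CPM in cerebellum and 14.4 CPM in cortex, but at 7.1 CPM in striatum. Mouse 7267059, the highest striatum library with 119 CPM, had 6.6 CPM in brainstem.

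The pathways that hold these genes were examined next. Of 26 measured Wnt and beta-catenin genes 3 rose and 1 fell in striatum, where 7.54% of all genes were called, with a median log2 fold change of -0.05 beside -0.003 over all genes. Rnf43, a ubiquitin ligase that removes Wnt receptors from the membrane, rose in SCA3 mice in striatum (0.65 ± 0.16), brainstem (1.06 ± 0.15), cerebellum (0.74 ± 0.16) and cortex (0.88 ± 0.16). It was the only gene of that list called outside striatum. The receptor Fzd1 fell in striatum (-0.84 ± 0.21), and the co-repressor Tle1 (0.32 ± 0.1) and the co-receptor Lrp6 (0.21 ± 0.07) rose. Of 18 genes around Gq, phospholipase C and protein kinase C, 0 were called in brainstem, cerebellum or cortex, and their median log2 fold change in striatum was 0.04. Of the vesicular transporters 3 of 5 were measured and 0 called in any region, with Slc32a1, the vesicular GABA transporter, at 0.03 ± 0.19, Slc17a7, the cortical VGLUT1, at 0.25 ± 0.68 and the monoamine transporter Slc18a2 at -0.89 ± 0.45 in striatum. Neither the 12 AMPA receptor subunits and partners of Shisa6 nor the 2 measured whirlin partners (Pdzd7 and Cask) held a called gene in any of the 4 regions. The AMPA receptor subunits Gria2 (0.26 ± 0.12) and Gria1 (0.02 ± 0.18) and the scaffold Dlg4 (0.2 ± 0.12) were the most abundant of the former in striatum. Purkinje cell markers (led by Itpr1, -0.07 ± 0.27 in cerebellum) held 0 called genes of 5, endothelial markers (led by Flt1, 0.09 ± 0.19 in striatum) 0 of 7, and cortical glutamatergic markers (led by Slc17a7, 0.01 ± 0.66 in cortex) 0 of 6. Of 10 mature oligodendrocyte markers 4 were called in striatum, all lower, among them Mal (-0.8 ± 0.19), Mobp (-0.81 ± 0.21) and Cldn11 (-0.67 ± 0.18). Enpp6, a marker of newly forming oligodendrocytes, rose in striatum (0.76 ± 0.2) and cortex (1.25 ± 0.2). No other of the 5 such markers was called in any region, and 2 lay below 0 in striatum and 1 in cortex.

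Outside the fixed lists, the 5 genes with the highest mean r to the 9 genes across 13 striatum libraries were Snx8, Tmed3, Parva, Ctif and Grid2ip, each with a mean r of 0.85 and a maximum in mouse 7267059. Grid2ip, for example, ran from 3.19 to 48.9 CPM. Across 14 brainstem libraries they were Adamts15, Chd3, Las1l, Islr2 and Bok, with mean r of 0.51 to 0.53, each most like Lef1 (0.81 to 0.94) and least like Shisa6. The 2 sets had no gene in common.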

How the data were processed

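Poly-A RNA was sequenced without strand information (TruSeq, HiSeq 2500). Per the study's methods and the submitters' processing notes, the authors trimmed reads with Sickle and cutadapt 1.10, aligned them to GRCm38/mm10 with STAR 2.3.0e, counted uniquely mapped reads per RefSeq gene with HTSeq 0.6.1 and kept genes averaging over 4 CPM. The deposited counts were not normalized. Samples with low RNA concentration were left out by the study. 0 columns of other samples were present.

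The 12372 genes and 53 libraries were fitted together in edgeR 4.0.16 (R 4.3.3) as a negative binomial model of 8 groups with TMM scaling. The contrast of SCA3 over wild-type mice was taken in each region by the likelihood ratio test, Benjamini-Hochberg adjusted over all genes, at an FDR of 0.05. CPM are TMM-scaled, and log2 CPM for correlations used a prior count of 2. Correlations were tested by two-sided permutation in cerebellum and cortex only. Intervals on fold changes are 95% intervals from the SE. The SE and p-values of these fits rest on 1 dispersion per gene, shared by the 8 groups. They treat the 53 libraries as independent and do not measure the spread between mice within 1 region alone. The models were tested on simulated data. Alternatives were the quasi-likelihood test, DESeq2 1.42.0, limma-voom 3.58.1, RLE scaling, a minimum of 10 counts in every library, RIN or mouse-number series as covariate, a RIN of at least 7, each region alone, and leaving out each mouse.

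The genes and lists were chosen with earlier results of these data known. Named genes are the 9 genes, the 5 other genes with the highest mean r to them in brainstem and in striatum, and of each list at most 4 called genes or the most abundant of those where none was called. Some genes of these lists are not reported here. Regions of a mouse come from the same animal, and deviations from group means correlated at a mean r of 0.0904 to 0.186 between regions of a mouse. Each contrast lies between mice within 1 region, so the pairing does not match SCA3 with wild-type libraries. Promoter windows are RefSeq, GRCm38.p6, and exon lengths GENCODE vM21.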

Additional observations from a re-analysis of the deposited data

Results flagged for a closer look

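In 15 of 72 groups (9 genes, 4 regions, 2 genotypes) 1 library stood apart from the rest by Dixon's criterion. The criterion assumes normal values, whereas it was applied to skewed CPM, and the genes share libraries. No chance rate is therefore set beside the count. Of the 15 groups, 8 are from brainstem and striatum, whose spread chose the genes, so their number is a description. In striatum Tcf7l2 and Slc17a6 stood apart in the same SCA3 mouse, 9082853, at 33.2 CPM (next library 9.28) and 71.3 CPM (next 6.61). Prkcd stood apart in wild-type mouse 7267059 at 861.0 CPM (next 294), and Shisa6 in SCA3 mouse 9083514 at 19.1 CPM (next 10.8). In brainstem Prkcd was high in wild-type mouse 7267055 at 56.5 CPM (next 29.6), the mouse in which Lef1 also stood apart at 29.9 CPM (next 15.3). Lef1 was likewise at 29.9 CPM in SCA3 mouse 9083515 (next 13.8). Shisa6 was low in wild-type mouse 9083375 at 21.8 CPM (next 30.3).

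In cerebellum SCA3 mouse 9082853 had the lowest Prkcd, 66.9 CPM (next 83.6), and the highest Lef1, 8.0 CPM (next 4.59), and SCA3 mouse 9083513 the lowest Ctxn3, 23.5 CPM (next 32.1). In cortex Prkcd was high in wild-type mouse 9083371 at 53.4 CPM (next 25.8), Ctxn3 in SCA3 mouse 7267056 at 13.8 CPM (next 5.96) and Shisa6 in wild-type mouse 7267058 at 67.2 CPM (next 38.5). Lef1 was low there in wild-type mouse 7267055 at 2.96 CPM (next 4.91).

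The genotype effect differed between the 4 regions for 5 of the 9 genes in the edgeR interaction test, where 0.218% of all genes passed. With the mouse as replicate block, since regions share mice, 0 of the 9 passed (Prkcd adjusted p = 0.13, limma-voom), and 0 passed by the edgeR quasi-likelihood test (Prkcd 0.076). The adjusted p was 0.0013 for Prkcd, 0.026 for Ctxn3, 0.026 for Rasd1, 0.026 for Whrn and 0.031 for Shisa6. The test includes the striatal contrast that chose the genes, so these values are a description.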

How the results depend on the processing

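The count of 7 genes called in striatum became 4 when the region was fitted alone, 0 when the other thalamic markers were added as covariate, with Slc17a6 at 0.57, and 0 in mice numbered 9083371 to 9083515. It was 6 or 7 with each mouse left out, and 5 with a RIN of at least 7 or without wild-type mice 7267058 and 7267059. With the mouse as replicate block it was 6. All striatum calls numbered 933, against 88 for the region alone, 139 at a RIN of at least 7, 289 without those mice, 30 in mice numbered 9083371 to 9083515, and 297 to 1833 with 1 mouse left out. Brainstem calls, 238, became 392 for the region alone, 752 with the covariate and 120 to 309 with 1 mouse left out. In the small counts, cerebellum went from 8 to 21 and cortex from 19 to 35 for the region alone. Fewer samples enter several of these fits, and those of a region alone take the dispersion from that region only. Otherwise the cause was not tested.

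Region dependence, 5 genes, fell to 0 by the quasi-likelihood test, 0 with the replicate block and 1 without wild-type mice 7267058 and 7267059. The median r became -0.01 in brainstem and 0.88 in striatum within the libraries low in Tcf7l2, and 0.7 in striatum on the CPM scale. The cortical pairs that passed fell from 12 to 6 by rho and 2 without the farthest libraries.

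Signs turned for values that no test called and, with the covariate, for Slc17a6. Tcf7l2 and Lef1 in striatum also lay above 0 with the covariate and without wild-type mice 7267058 and 7267059. In cortex Rasd1 was -0.09 by limma-voom and -0.12 with the replicate block. In mice numbered 9083371 to 9083515, cortex gave Tcf7l2 -0.27, Prkcd -0.05, Ctxn3 -0.46, Rasd1 -0.08 and Whrn -0.13, and cerebellum Prkcd -0.01. With each mouse left out, cerebellar Rasd1 ranged from -0.03 to 0.13. In cortex the ranges were -0.25 to 0.26 for Tcf7l2, -0.07 to 0.76 for Prkcd, -0.04 to 0.12 for Lef1, -0.4 to 0.52 for Ctxn3, -0.3 to 0.37 for Rasd1, -0.47 to 0.04 for Shisa6 and -0.09 to 0.19 for Whrn. In brainstem they were 0.34 to 1.55 for Tcf7l2, -0.07 to 0.38 for Prkcd, -0.13 to 0.02 for Slc17a6, -0.22 to 0.85 for Lef1, -0.11 to 0.47 for Ctxn3, -0.23 to 0.04 for Rasd1 and -0.03 to 0.07 for Shisa6. In striatum Slc17a6 ranged from -4.45 to -1.95, Tcf7l2 from -2.35 to -1 and Lef1 from -1.09 to -0.2. The fits to mice of 1 number block or without wild-type mice 7267058 and 7267059, the count with the covariate, the other interaction tests, the low libraries and Spearman's rho were added after seeing the data. Ctxn3, at 0.575 CPM in its lowest striatum library, is the gene nearest to the depth limit.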
